A study of Homo sapiens with 6 samples.

Results

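The genes described here are 9 genes of HLA class I antigen presentation, HLA-B, HLA-C, HLA-E, B2M, TAP1, TAP2, TAPBP, ERAP1 and CD274, taken by name from the 60612 gene identifiers measured. CD274, which encodes the immune checkpoint ligand PD-L1, was taken with the class I genes as the signal that restrains T cells once they have met a peptide. A gene was the sum of all transcript entries that share its gene identifier, and each of the 9 symbols matched 1 identifier, on the primary assembly, so no copy on an alternate haplotype was added. All 9 passed the filter on low values, a mean of at least 0.5 FPKM (a unit that divides fragments by transcript length and by the size of the library) over the 6 libraries, which kept 14770 genes.

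RNA was sequenced from MDA-MB-231, an established human triple-negative breast cancer cell line, on day 3, with 3 libraries of cells that stably express a control hairpin (Sh-NC, genotype given as WT) and 3 of cells that express a hairpin against YAP1 (Sh-YAP1, genotype given as YAP1 knockdown). Neither group received a further treatment. The comparison asked which genes change when YAP1, a coactivator that works with TEAD transcription factors, is depleted. The hairpin is not identified further in the labels. Independent experiments are stated for the study in general, but the labels do not tie these libraries to separate cultures, so the p-values measure the spread between these libraries, which may be technical.

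Class I molecules show peptides from inside the cell to CD8+ T cells. Peptides cut by the proteasome are pumped into the endoplasmic reticulum by the TAP1 and TAP2 transporter, trimmed by ERAP1, and loaded with the help of tapasin (TAPBP) onto a heavy chain, such as HLA-B or HLA-C, that is paired with beta-2 microglobulin (B2M). HLA-E shows leader peptides of other class I chains to receptors on NK cells. Interferon gamma, through JAK kinases and IRF1, and the transactivator NLRC5 are known to raise these genes, and tumor cells, those of the breast included, are known to lose class I as a way of evading T cells.

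Of the 9 genes, 6 lie in the major histocompatibility complex on chromosome 6 (GENCODE 29, GRCh38). HLA-E is at chr6:30489467-30494205 on the plus strand, and TAP2 (chr6:32821833-32838780), TAP1 (chr6:32845209-32853978) and TAPBP (chr6:33299694-33314387) are on the minus strand. The annotated spans of HLA-C (chr6:31268749-31272130) and HLA-B (chr6:31269491-31357188), both on the minus strand, overlap. Outside the complex, B2M is at chr15:44711487-44718877 on the plus strand, ERAP1 at chr5:96760810-96808100 on the minus strand and CD274 at chr9:5450503-5470566 on the plus strand.

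The proximal promoters of 5 of these genes are shown because the members are usually discussed together as interferon-responsive genes, and the letters of the interferon response could be looked for in them. Each is a stretch that ends at the RefSeq transcription start (GRCh38.p14), written 5' to 3' on the gene's strand; capitals mark matches, on either strand, to GAAA followed after any 2 bases by GAAA (the core of the interferon-stimulated response element), TGACGC (like a cyclic AMP response element), CCAAT (the CCAAT box) or GGAATG (the TEAD core). The sequence is that of the reference and not of the alleles of MDA-MB-231.
HLA-B, chr6:31357180-31357289, minus strand: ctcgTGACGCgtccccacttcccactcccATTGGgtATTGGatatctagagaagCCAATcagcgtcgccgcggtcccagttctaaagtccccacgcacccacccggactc
HLA-C, chr6:31272093-31272202, minus strand: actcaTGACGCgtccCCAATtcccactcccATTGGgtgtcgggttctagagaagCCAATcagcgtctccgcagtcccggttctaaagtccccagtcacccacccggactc
B2M, chr15:44711367-44711516, plus strand: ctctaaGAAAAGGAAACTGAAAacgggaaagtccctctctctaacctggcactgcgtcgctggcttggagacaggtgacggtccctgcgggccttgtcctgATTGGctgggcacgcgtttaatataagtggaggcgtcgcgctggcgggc
TAP1, chr6:32853705-32853854, minus strand: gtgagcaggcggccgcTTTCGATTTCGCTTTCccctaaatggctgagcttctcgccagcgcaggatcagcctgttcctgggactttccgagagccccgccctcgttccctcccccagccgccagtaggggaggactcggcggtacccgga
CD274, chr9:5450292-5450541, plus strand: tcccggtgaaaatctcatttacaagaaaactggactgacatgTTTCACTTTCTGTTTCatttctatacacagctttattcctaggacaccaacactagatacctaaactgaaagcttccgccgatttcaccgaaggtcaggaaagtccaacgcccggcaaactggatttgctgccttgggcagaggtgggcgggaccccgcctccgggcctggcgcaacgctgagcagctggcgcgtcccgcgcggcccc

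The search covered the 250 bases before each start, in 10 windows of 8 members. A window for HLA-E was not used here. The exact interferon core was found in B2M, TAP1, TAP2, TAPBP and CD274, in 5 of the 10 windows, beside 3.02% of 35116 promoter windows of the same length. HLA-B, HLA-C and ERAP1 held no exact match, but inexact forms of the element were not searched for, so they may still hold one. In B2M, TAP1, TAPBP and CD274 there were overlapping pairs of matches, which in B2M read GAAAAGGAAACTGAAA. TGACGC was found in HLA-B, HLA-C and TAP2 (7.67% of all windows), and CCAAT in 5 member windows (32.0% of all windows). GGAATG was found in 1 member window, the second start of ERAP1, where its last base lies 32 bases before the start, beside 11.9% of all windows. A match is a description of these letters and not a bound site.

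The knockdown was present in the RNA. YAP1 was at 28.1, 26.2 and 22.9 FPKM in the Sh-NC libraries and at 3.35, 2.67 and 2.58 FPKM in the Sh-YAP1 libraries. It fell by 2.79 on the log2(FPKM + 1) scale on which all differences below are given (SE 0.12, limma adjusted p = 0.0018, Benjamini-Hochberg over 14770 genes). The cells carried VIM at 1645 to 2303 FPKM, while ESR1 did not exceed 0.07 and PGR did not exceed 0.01 FPKM, and ERBB2 was between 14.3 and 18.1 FPKM. A library held 13037 to 13219 genes at 1 FPKM or more. Depth is not known from FPKM, so errors come from the spread between libraries only.

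None of the 9 genes passed the test between Sh-YAP1 and Sh-NC, with 0 of 9 below 0.05 in adjusted p (limma with Benjamini-Hochberg), beside 3.38% of all genes tested (1.75% higher and 1.62% lower in Sh-YAP1). Unadjusted limma p-values were under 0.05 for 2 of the 9, B2M and ERAP1, beside 21.9% of all genes. The 2 groups of libraries did not overlap for 3 members, B2M and ERAP1 with the higher values in Sh-YAP1 and TAP2 with the lower, beside 29.4% of all genes (14.6% higher and 14.7% lower). The log2 differences of the members ran from -0.25 for TAP1 to 0.34 for ERAP1, with a median of 0.02, beside -0.0014 over all genes tested. Their median absolute difference was 0.10, beside 0.16 over all genes. These are bulk values, in which fewer cells expressing a gene and less of its RNA per cell cannot be told apart.

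**Figure D1:**
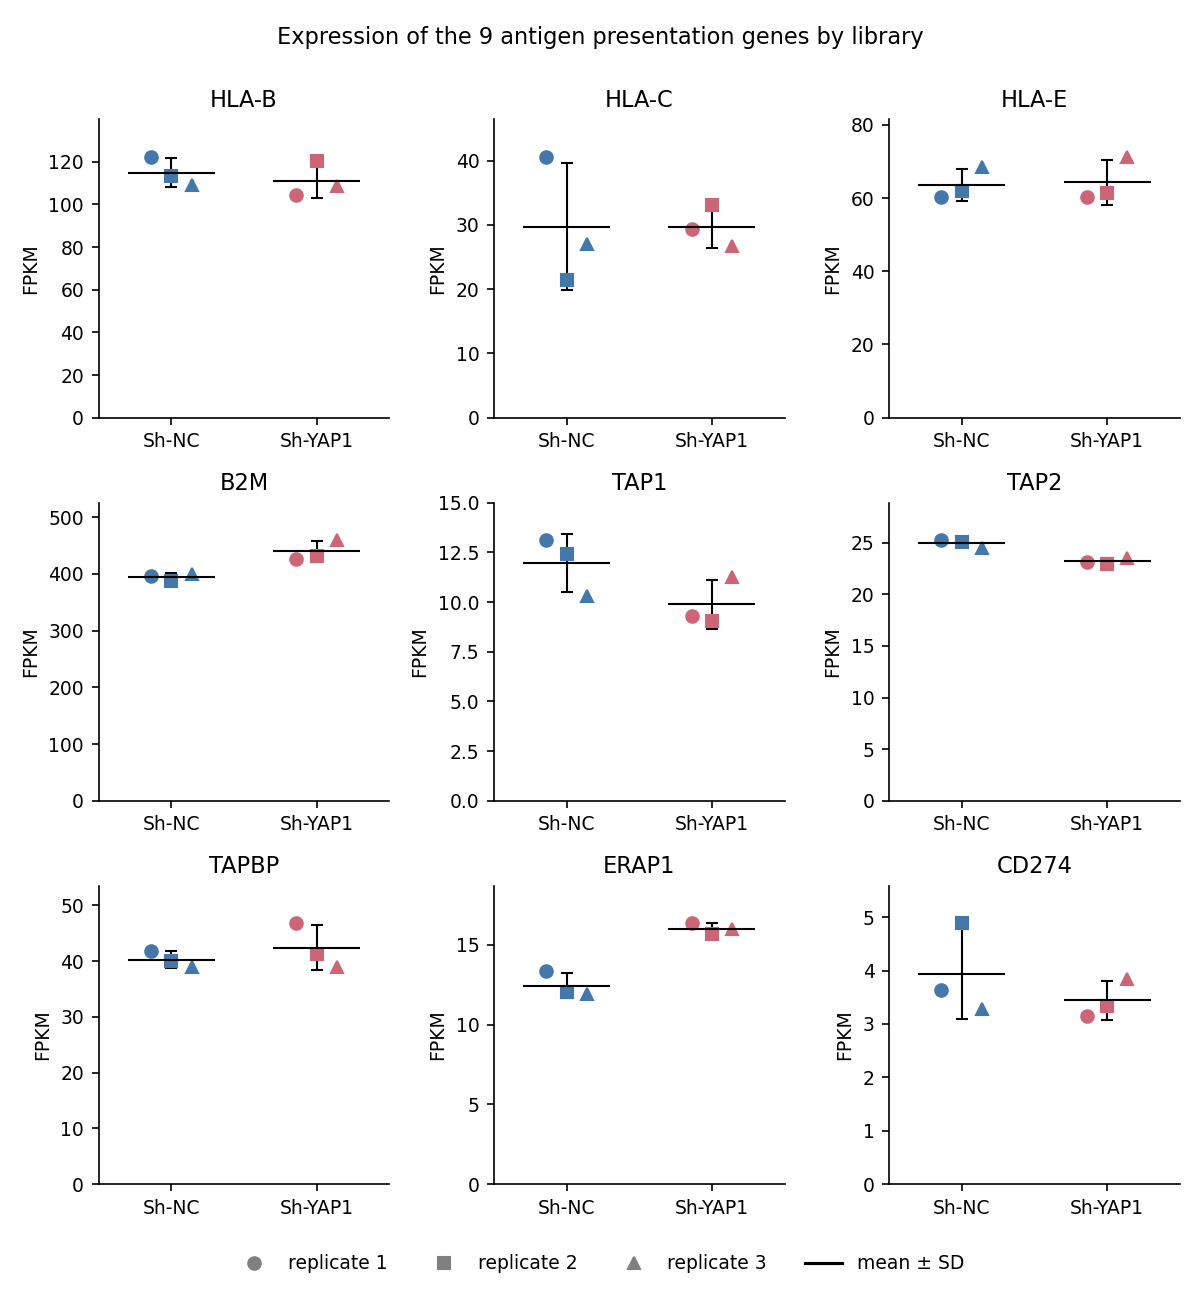
FPKM of each of the 9 genes (y axes from 0, a scale for each gene) in the 3 Sh-NC and 3 Sh-YAP1 libraries (x axes); points are libraries, shaped by replicate number, with the mean and SD as lines. Only B2M and ERAP1 (higher in Sh-YAP1) and TAP2 (lower) have groups that do not overlap.

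By level, the members kept 1 order of means in both groups, from B2M, HLA-B and HLA-E down through TAPBP, HLA-C, TAP2, ERAP1 and TAP1 to CD274. In Sh-NC the means ran from 394 FPKM for B2M to 3.93 FPKM for CD274. The Sh-NC ranges of TAPBP and HLA-C, of HLA-C and TAP2, and of ERAP1 and TAP1 overlapped, so these neighbours did not differ beyond their spread. In Sh-YAP1 no neighbours overlapped, and ERAP1, at 15.7 to 16.4 FPKM, stood clear of TAP1, at 9.06 to 11.3 FPKM.

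Among the heavy chains, HLA-B, a classical class I chain that presents peptides to CD8+ T cells, was at 122, 113 and 109 FPKM in Sh-NC and at 104, 120 and 109 FPKM in Sh-YAP1. The groups overlapped, and the means were 115 ± 6.84 and 111 ± 8.23 FPKM (SD, n = 3). The log2 difference was -0.05 (95% interval -0.25 to 0.15, limma adjusted p = 0.766), which as a ratio on the FPKM + 1 scale runs from 0.844 to 1.11. One transcript entry held 81.1% of HLA-B, and the next, with 17.2%, was lowest in Sh-YAP1 replicate 3, at 5.30 FPKM beside 17.7 to 25.7 FPKM in the other libraries.

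HLA-C, a classical chain that is also the main class I ligand of killer-cell immunoglobulin-like receptors, was at 40.6, 21.5 and 27.1 FPKM in Sh-NC and at 29.3, 33.1 and 26.7 FPKM in Sh-YAP1. It had the widest spread of the members in Sh-NC relative to its level, with means of 29.7 ± 9.84 and 29.7 ± 3.24 FPKM (SD, n = 3) and a log2 difference of 0.04 (95% interval -0.49 to 0.57, limma adjusted p = 0.936). The interval is wide enough to hold a ratio from 0.712 to 1.49. The sign depended on single libraries: the difference was 0.28 without Sh-NC replicate 1 and -0.16 without Sh-NC replicate 2.

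The sum of HLA-C hid a difference between its entries. The entry with 41.0% of the gene was at 8.17, 9.23 and 5.55 FPKM in Sh-NC and at 18.4, 17.0 and 14.8 FPKM in Sh-YAP1. Another, with 22.5%, was at 24.9, 0 and 15.2 FPKM in Sh-NC against was listed at 0 in the 3 Sh-YAP1 libraries. The first was thus higher in every Sh-YAP1 library, while the second was present only in Sh-NC replicates 1 and 3. Without the second entry the gene summed to 16.4 ± 4.82 FPKM in Sh-NC against 29.7 ± 3.24 FPKM in Sh-YAP1 (SD, n = 3), a log2 difference of 0.85, but that entry was left out because it changed most, so the value is a description. The files give gene identifiers and no transcript names, and class I genes are nearly alike and highly variable between people, so how reads were shared among these entries, or with HLA-B, was not tested. The sums over entries are therefore the values compared here, and the entries are given as values only.

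HLA-E, the nonclassical chain read by NK cell receptors, was at 60.2, 61.8 and 68.6 FPKM in Sh-NC and at 60.2, 61.3 and 71.3 FPKM in Sh-YAP1. The groups overlapped almost entirely, with a log2 difference of 0.02 (95% interval -0.21 to 0.24, limma adjusted p = 0.943). One entry held 96.3% of the gene. HLA-B, HLA-C and HLA-E together came to 208 ± 13.6 FPKM in Sh-NC against 205 ± 10.5 FPKM in Sh-YAP1 (SD, n = 3).

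B2M, the light chain that every class I heavy chain needs to reach the surface, was the most abundant member, at 397, 387 and 400 FPKM in Sh-NC against 427, 432 and 460 FPKM in Sh-YAP1. Every Sh-YAP1 library was above every Sh-NC library. The log2 difference was 0.16 (SE 0.06, 95% interval 0.01 to 0.30) and did not pass (limma p = 0.039, adjusted p = 0.201; exact permutation p = 0.1, the smallest that 3 against 3 allows). Quantile normalization gave 0.31.

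The entry of B2M that changed most in mean FPKM held 8.11% of the gene. It was at 20.8, 2.93 and 6.32 FPKM in Sh-NC and at 29.1, 33.7 and 110 FPKM in Sh-YAP1, a mean difference of 47.6 FPKM. The rest of the gene was at 384 ± 8.59 FPKM in Sh-NC against 382 ± 27.7 FPKM in Sh-YAP1 (SD, n = 3), with a log2 difference of -0.01, but this entry was left out because it changed most. By library the rest was at 376, 384 and 393 FPKM in Sh-NC and at 398, 398 and 350.1 FPKM in Sh-YAP1, so replicates 1 and 2 of Sh-YAP1 were above every Sh-NC library and replicate 3, where the entry was highest, was below them. Per FPKM of HLA-B, HLA-C and HLA-E summed, B2M stood at 1.78, 1.97 and 1.95 in Sh-NC and at 2.20, 2.01 and 2.23 in Sh-YAP1, and the groups did not overlap.

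TAP1, the first half-transporter of the peptide pump, was at 13.1, 12.4 and 10.3 FPKM in Sh-NC and at 9.29, 9.06 and 11.3 FPKM in Sh-YAP1. Sh-YAP1 replicate 3 lay above Sh-NC replicate 3, so the groups overlapped. The log2 difference was -0.25 (SE 0.12, 95% interval -0.55 to 0.04), with a limma p of 0.0822 and an adjusted p of 0.289. Its main entry, with 86.8% of the gene, did not overlap, at 12.5, 12.0 and 10.02 FPKM in Sh-NC against 8.53, 7.00 and 6.77 FPKM in Sh-YAP1. A second entry, listed at 0 in the Sh-NC libraries and in Sh-YAP1 replicate 1, was at 1.69 and 4.14 FPKM in Sh-YAP1 replicates 2 and 3 and brought the sum of replicate 3 back up. The span of PSMB9, an immunoproteasome subunit, encloses TAP1 on the opposite strand, and with no strand setting stated the reads of their overlapping parts cannot be told apart. PSMB9 was at 11.6 ± 0.882 and 11.5 ± 1.16 FPKM (SD, n = 3; limma adjusted p = 0.942).

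TAP2, the partner of TAP1, was at 25.3, 25.0 and 24.5 FPKM in Sh-NC and at 23.1, 22.9 and 23.5 FPKM in Sh-YAP1. It had the smallest spread of the 9 genes within Sh-NC, and the groups did not overlap. The log2 difference was -0.10 (SE 0.06, 95% interval -0.25 to 0.05, limma p = 0.147, adjusted p = 0.388; exact permutation p = 0.1). One entry held 94.5% of TAP2. TAPBP, the bridge between TAP and the empty heavy chain, was at 41.8, 40.1 and 38.9 FPKM in Sh-NC and at 46.9, 41.4 and 39.0 FPKM in Sh-YAP1. The groups overlapped, and the log2 difference of 0.07 (95% interval -0.14 to 0.28, limma adjusted p = 0.687) rested on Sh-YAP1 replicate 1, without which it was -0.0031.

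**Figure D2:**
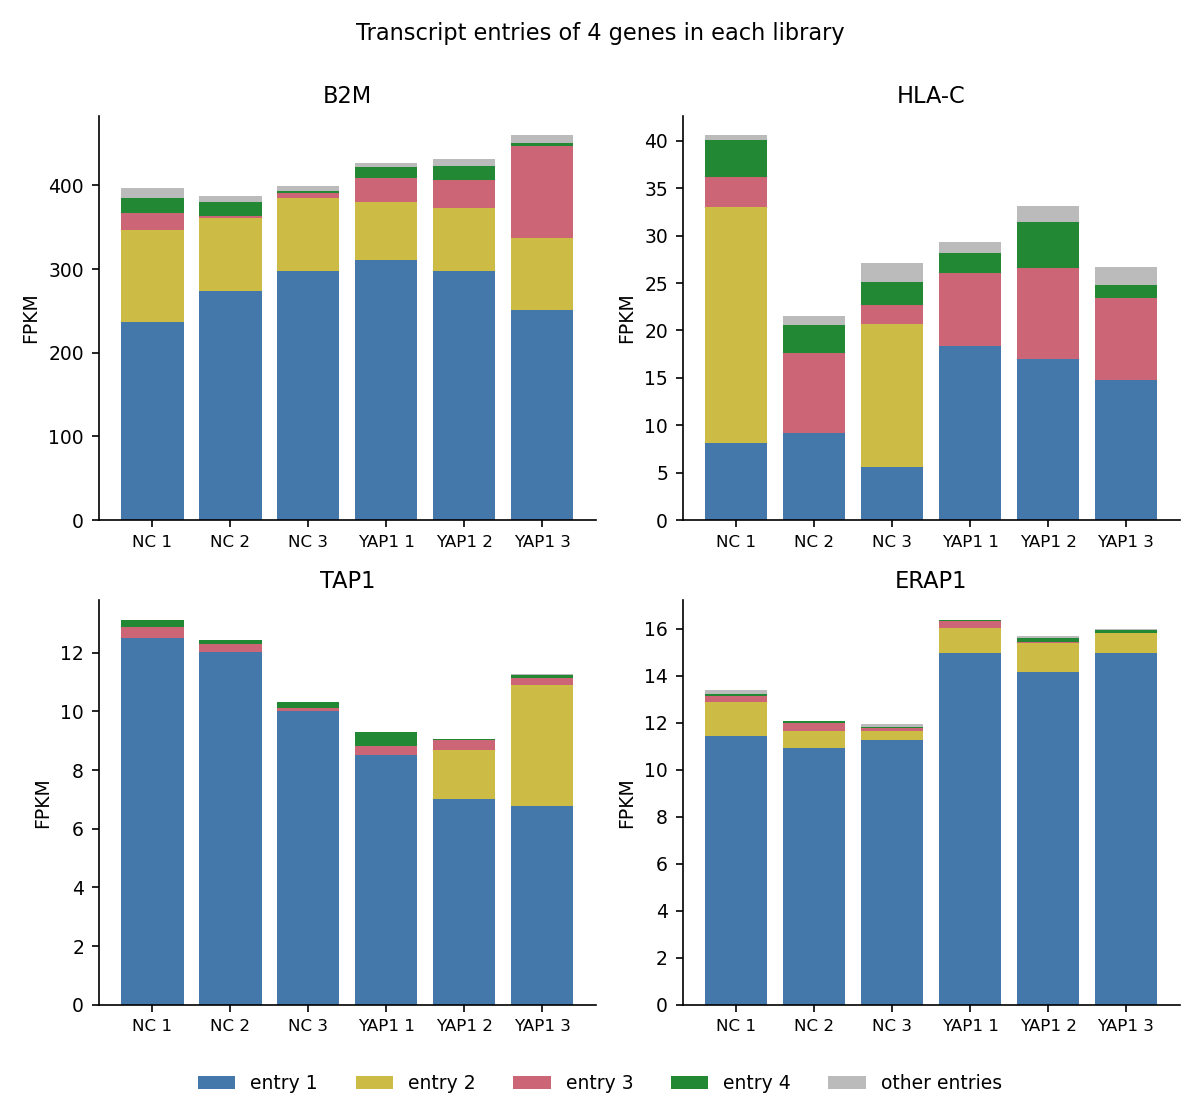
FPKM of the transcript entries of B2M, HLA-C, TAP1 and ERAP1, stacked in each of the 6 libraries (x axes; NC, Sh-NC; YAP1, Sh-YAP1); entries are numbered by their mean over all libraries. Entry 3 of B2M reaches 110 FPKM in Sh-YAP1 replicate 3, entry 2 of HLA-C appears only in Sh-NC replicates 1 and 3, and entry 1 of ERAP1 is higher in all 3 Sh-YAP1 libraries.

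ERAP1, the aminopeptidase that trims peptides to the length class I can hold, showed the largest difference among the members. It was at 13.4, 12.1 and 11.9 FPKM in Sh-NC and at 16.4, 15.7 and 16.0 FPKM in Sh-YAP1, with means of 12.5 ± 0.797 and 16.0 ± 0.346 FPKM (SD, n = 3). The lowest Sh-YAP1 library was above the highest Sh-NC library. The log2 difference was 0.34 (SE 0.08, 95% interval 0.16 to 0.52), with an unadjusted limma p of 0.0032 and an adjusted p of 0.0658, so it was not called. With each library left out in turn the log2 difference was 0.31 to 0.39 and the limma adjusted p 0.112 to 0.175. The main entry, with 90.9% of the gene, carried the difference, at 11.4, 10.9 and 11.3 FPKM in Sh-NC against 14.9, 14.1 and 15.0 FPKM in Sh-YAP1.

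The gene on the opposite strand of ERAP1, CAST, which encodes the calpain inhibitor calpastatin, was at 82.7 ± 4.52 FPKM in Sh-NC against 64.6 ± 6.47 FPKM in Sh-YAP1 (SD, n = 3), a log2 difference of -0.36 (limma adjusted p = 0.0948), which is opposite in sign. Whether the authors counted by strand is not stated, so reads of overlapping parts cannot be told apart.

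CD274 was the lowest member, at 3.64, 4.89 and 3.27 FPKM in Sh-NC against 3.15, 3.33 and 3.85 FPKM in Sh-YAP1. The groups overlapped. Its main entry, with 59.9% of the gene, did not overlap, at 2.30, 2.55 and 2.27 FPKM in Sh-NC against 1.89, 2.10 and 2.15 FPKM in Sh-YAP1. The next entry, with 31.0%, overlapped. The log2 difference was -0.14 (SE 0.14, 95% interval -0.48 to 0.20, limma adjusted p = 0.614), and with each library left out it ran from -0.24 without Sh-NC replicate 3 to -0.01 without Sh-NC replicate 2, the highest library. As a ratio on the FPKM + 1 scale the interval runs from 0.716 to 1.15. PDCD1LG2, the other ligand of PD-1, named after its values were seen, was at 1.85 ± 0.0503 and 1.79 ± 0.224 FPKM (SD, n = 3; limma adjusted p = 0.893).

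**Figure D3:**
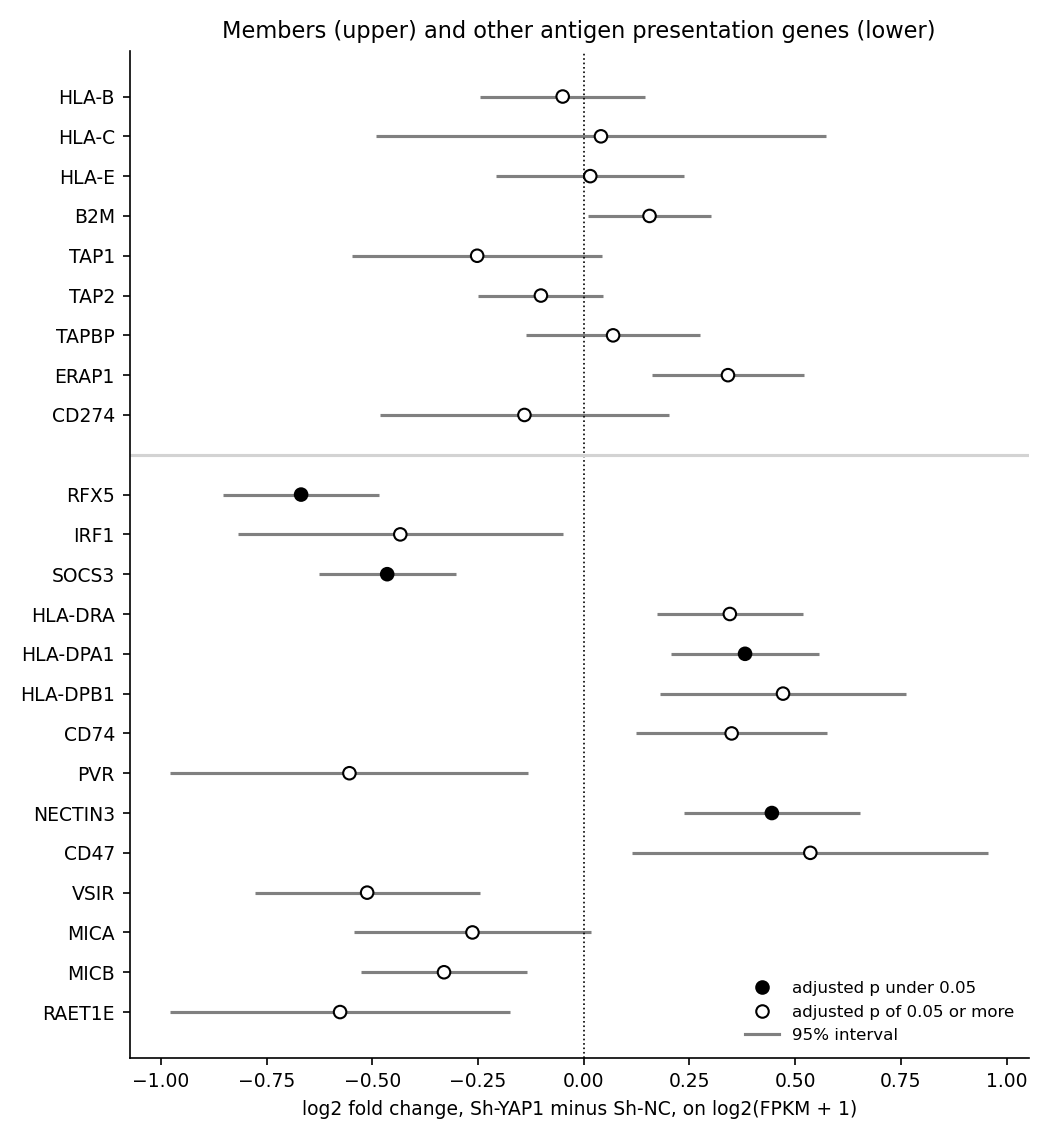
Log2 difference of Sh-YAP1 minus Sh-NC on log2(FPKM + 1) (x axis) for the 9 members (upper) and for other antigen presentation and immune ligand genes named by rule (lower); lines are 95% intervals, and filled points have a limma adjusted p under 0.05. No member is filled, and of the lower genes RFX5 and SOCS3 lie to the left and HLA-DPA1 and NECTIN3 to the right.

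The members were then read beside 93 genes of the wider pathway, members included, of which 78 were tested. Of these, 4 passed at a limma adjusted p under 0.05, with 2 higher and 2 lower in Sh-YAP1, beside 3.38% of all genes, and the groups did not overlap for 14 with the higher and 14 with the lower values in Sh-YAP1, beside 14.6% and 14.7% of all genes. Within the class I pathway itself no gene passed: 0 of 6 tested heavy chains, 0 of 8 genes of the light chain and peptide loading complex, 0 of 6 peptide trimming genes and 0 of 5 immunoproteasome and activator subunits (limma; unadjusted p under 0.05 for 1, 1, 2 and 0 of them). The chaperone CALR was the most abundant of the loading complex, at 610 ± 5.82 and 625 ± 10.8 FPKM (SD, n = 3). PSME1, a proteasome activator subunit, was at 87.8 ± 4.38 and 83.7 ± 6.93 FPKM, and NPEPPS, a cytosolic aminopeptidase, at 28.5 ± 4.94 and 25.5 ± 3.74 FPKM. HFE, an iron-regulating class I-like chain, was at 1.37, 1.72 and 1.58 FPKM in Sh-NC against 2.09, 3.59 and 3.34 FPKM in Sh-YAP1 (log2 difference 0.63, limma adjusted p = 0.0989).

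Of 8 class I transactivators, 1 passed, lower in Sh-YAP1 (1.62% of all genes), and 3 had groups without overlap, also lower (14.7% of all genes). RFX5, a subunit of the RFX complex that binds the X box of class I and class II promoters, was at 52.2, 48.2 and 47.5 FPKM in Sh-NC against 29.2, 29.9 and 32.9 FPKM in Sh-YAP1 and fell by 0.67 (SE 0.08, limma adjusted p = 0.0133). The call was lost without Sh-NC replicate 1, Sh-NC replicate 2 or Sh-YAP1 replicate 2 (adjusted p 0.0556 to 0.0602, limma), while the log2 difference stayed between -0.72 and -0.63 with each library left out. Of its 12 transcript entries with a mean of at least 0.1 FPKM, 4 were lower and 0 higher in Sh-YAP1 without overlap. The share of all transcript entries without overlap was not computed. The largest was at 24.9, 24.6 and 24.7 FPKM in Sh-NC and at 0, 0 and 16.9 FPKM in Sh-YAP1, and the next at 13.4, 13.6 and 12.8 FPKM and at 7.74, 7.20 and 9.36 FPKM. Another went the other way, at 1.59, 1.64 and 0.86 FPKM in Sh-NC and at 18.2, 19.1 and 1.32 FPKM in Sh-YAP1. With the largest left out, because it changed most, and the opposite one kept, the log2 difference of the gene was -0.02. AL391069.3, on the opposite strand of RFX5, was at 3.40 ± 0.415 and 1.83 ± 0.215 FPKM (SD, n = 3; limma adjusted p = 0.0383). NLRC5, the transactivator of class I genes, was at 9.51, 9.55 and 11.1 FPKM in Sh-NC and at 10.1, 11.2 and 8.88 FPKM in Sh-YAP1.

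Among 11 genes of the interferon gamma receptor and JAK-STAT pathway, 1 passed, lower in Sh-YAP1 (1.62% of all genes). SOCS3, which restrains JAK signaling, was at 31.0, 30.5 and 28.5 FPKM in Sh-NC against 21.3, 22.0 and 21.1 FPKM in Sh-YAP1 and fell by 0.47 (SE 0.07, limma adjusted p = 0.0245), though the call was lost without any 1 library other than Sh-NC replicate 3 (adjusted p 0.0687 to 0.0944, limma; log2 difference -0.50 to -0.44 over all 6). STAT3, the most abundant of the 11 genes, was at 30.3 ± 1.17 and 32.9 ± 0.716 FPKM. IRF1 was counted above with the class I transactivators and not among these 11. It was lower in each Sh-YAP1 library without passing, at 25.0, 15.7 and 20.7 FPKM in Sh-NC against 13.9, 15.3 and 14.8 FPKM in Sh-YAP1 (log2 difference -0.43, limma adjusted p = 0.184; -0.28 without Sh-NC replicate 1).

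The class II pathway presents extracellular peptides to CD4+ T cells. Of its 10 genes, 8 were tested, and all 8 had a log2 difference above 0, down to 0.0034 for HLA-DMB, beside 7350 of 14770 genes in all. Their median was 0.33, 4 had groups without overlap with the higher values in Sh-YAP1 (14.6% of all genes) and 1 passed (1.75% of all genes). That gene, HLA-DPA1, was at 15.1, 16.3 and 14.5 FPKM in Sh-NC against 19.9, 19.9 and 20.8 FPKM in Sh-YAP1 and rose by 0.38 (SE 0.07, limma adjusted p = 0.0471), and with any 1 of the 6 libraries left out the log2 difference was 0.35 to 0.42 but the call was lost (adjusted p 0.095 to 0.145, limma). Without the entry that changed most the log2 difference was 0.10 for HLA-DPA1 and 0.11 for HLA-DPB1 (limma adjusted p = 0.998 for both, the highest over the alternatives, beside lowest values of 0.039 and 0.0821). HLA-DRA was at 91.3 ± 2.21 and 116 ± 7.83 FPKM (SD, n = 3; log2 difference 0.35, limma adjusted p = 0.0571, and 0.40 with adjusted p = 0.0275 under quantile normalization, in a range of 0.0275 to 0.165 over the alternatives), and HLA-DPB1 was at 5.10 ± 0.645 and 7.46 ± 0.900 FPKM (0.47, adjusted p = 0.0913). The spans of HLA-DPA1 and HLA-DPB1 overlap on opposite strands, so reads of the shared part cannot be told apart.

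CD74, the invariant chain that guards the class II groove, was at 226, 284 and 266 FPKM in Sh-NC against 321, 330 and 335 FPKM in Sh-YAP1 (log2 difference 0.35, limma adjusted p = 0.102). CIITA, the class II transactivator, was at 4.42 ± 0.905 and 4.66 ± 0.276 FPKM. Of 10 immune cell markers, 2 passed the filter on low values, and none passed the test (limma; 0 with an unadjusted p under 0.05). All 10 summed to 1.51 to 2.40 FPKM in Sh-NC against 2.89 to 3.09 FPKM in Sh-YAP1, mostly CD8A at 1.11 ± 0.377 and 1.63 ± 0.139 FPKM. LYZ, the other marker that passed the filter, was at 0.43 to 0.77 FPKM over the 6 libraries. CD14, under the filter, was at 0.32 to 0.84 FPKM. CD3D, CD3E, MS4A1 and NKG7 were listed at 0 in all 6 libraries, and PTPRC did not exceed 0.04 FPKM.

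**Figure D4:**
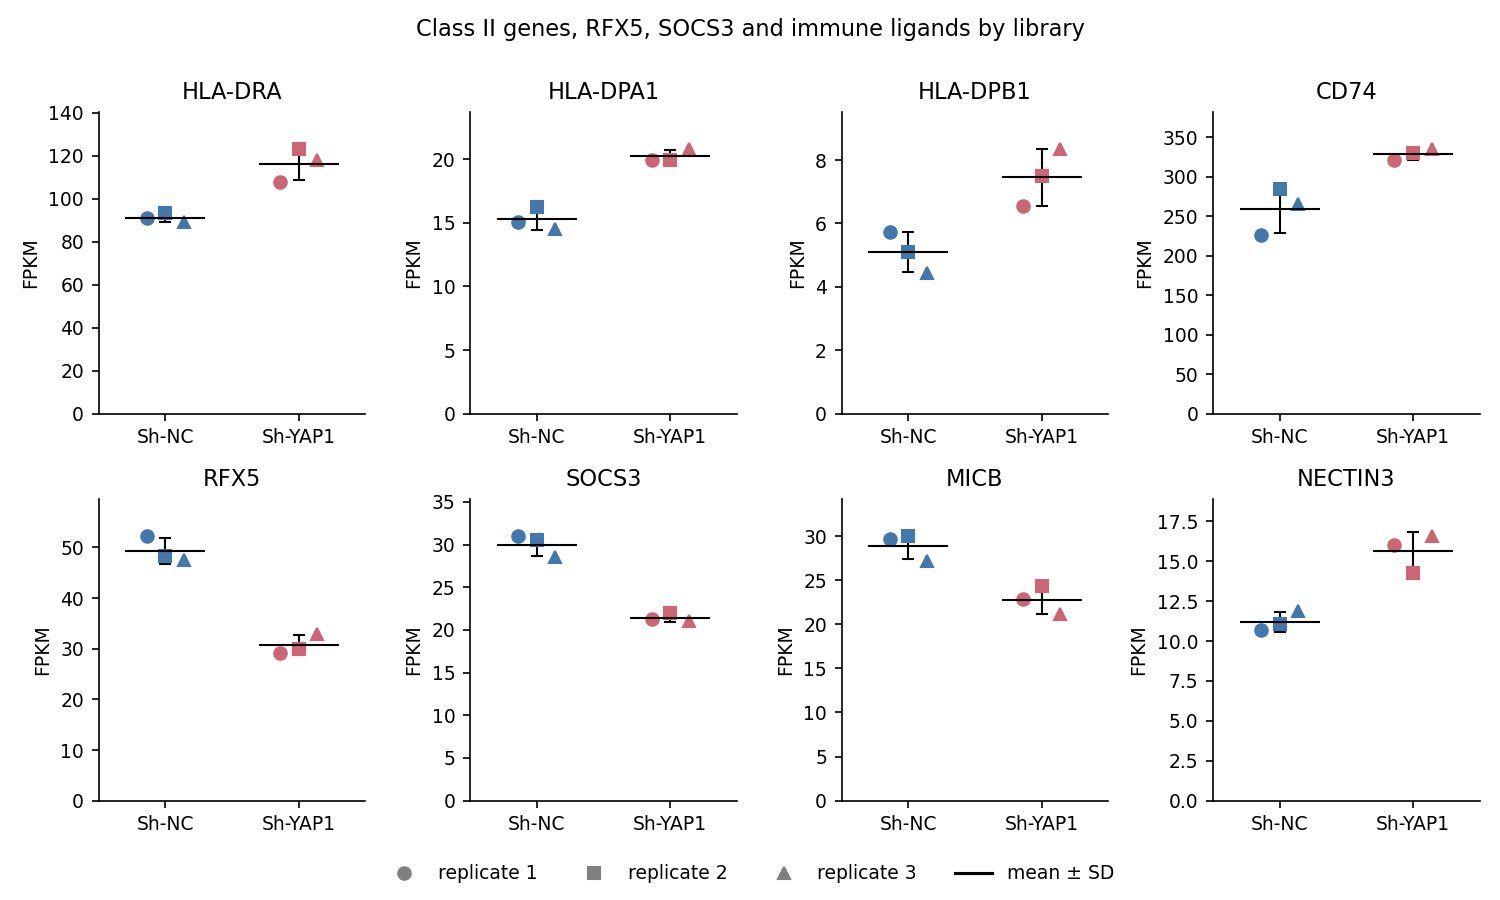
FPKM of 4 class II pathway genes (upper) and of RFX5, SOCS3, MICB and NECTIN3 (lower) in the 3 Sh-NC and 3 Sh-YAP1 libraries (y axes from 0); points are libraries, shaped by replicate number, with mean and SD as lines. The groups do not overlap in any of the 8 panels, and HLA-DPA1, RFX5, SOCS3 and NECTIN3 passed at a limma adjusted p under 0.05.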

How the data were processed

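Values deposited for 3 Sh-NC and 3 Sh-YAP1 libraries of MDA-MB-231 total RNA were used. The authors deposited FPKM, with 229420 transcript entries per library, each with a gene identifier and no transcript name. The submitters' processing notes name hg19, Bowtie 0.12.2 and HISAT2 2.0 without their roles. The quantification tool, annotation and strand setting are not given in the sources used here. Since FPKM keep no depth, counting error could not be computed, and count models were not used.

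Entries were summed by gene identifier. Symbols and positions came from the identifier table and GENCODE 29 (58394 of 60612 identifiers matched on the primary assembly), and promoters from RefSeq (GRCh38.p14). Genes whose mean reached 0.5 FPKM were compared on log2(FPKM + 1) with limma 3.58.1 (lmFit, eBayes with trend; R 4.3.3), with group as the single factor, and p-values were adjusted over 14770 genes by Benjamini-Hochberg. Python 3.11.15 with pandas 2.3.3, scipy 1.17.1 and matplotlib 3.10.9 served for exact two-sided permutation tests, whose smallest p is 0.1, and plots. The code was tested on simulated data with changes larger than those of any member, so that test does not cover differences of their size.

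The members and gene lists were chosen with earlier results of these data known. Besides the members and YAP1, the text names list genes at an adjusted p under 0.05, those without overlap between groups and with a log2 difference of at least 0.3 in size, and the most abundant of each list. PSMB9, CAST, PDCD1LG2, NLRC5, CIITA, HLA-DMB, CD276, RAET1L, AL391069.3 and the identity and immune markers were named in addition, and some genes that the rule takes are not reported here. Alternatives were pseudocounts of 0.1 and 0.01, quantile normalization, median centring, no trend, no filter, a minimum of 1 FPKM, a replicate block, each library left out, minor entries left out and the most changed entry left out.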

Additional observations from a re-analysis of the deposited data

How the results depend on the processing

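No member passed in any of 16 alternatives (0 of 9 each, limma). The median log2 difference of all genes was -0.0014, -0.0023 under quantile normalization and -0.018 under median centring. Over all genes, 499 were called, against 232 with no filter, 1 with the replicate block (2779 at an unadjusted p under 0.05), 5 without the most changed entry and 78 to 171 without 1 library. The wider lists held 4 calls, against 2 with no trend, 2 with no filter, 0 with the replicate block, 0 without the most changed entry and 0 to 2 without 1 library. YAP1 was at -2.46 without its most changed entry (limma adjusted p = 0.057) and at -2.88 to -2.73 without 1 library. The cause of these losses was not tested beyond the entries and libraries removed. Across genes as a whole, deviations of libraries with the same replicate number correlated at -0.028, 0.062 and 0.004. Such a correlation cannot show whether replicate number pairs the libraries for some genes only, which was not tested. Under the block RFX5, SOCS3, HLA-DPA1 and NECTIN3 lost their calls (adjusted p 0.121, 0.131, 0.165 and 0.15, limma).

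NECTIN3 lost its call under quantile normalization, median centring, no trend and no filter (adjusted p 0.0532, 0.0546, 0.0603 and 0.0841, limma), and HLA-DPA1 under no trend and no filter (0.0631 and 0.0704). Without the most changed entry RFX5, HLA-DPA1 and NECTIN3 were at -0.02, 0.10 and 0.58 (adjusted p 0.998, 0.998 and 0.773, limma). Some log2 differences near 0 changed sign. Quantile normalization gave 0.0033 for HLA-B and 0.071 for NT5E, and median centring -0.0014 for HLA-E. Without 1 library HLA-C ran from -0.16 to 0.28, HLA-E from -0.061 to 0.071, TAPBP from -0.0031 to 0.13, NT5E from -0.041 to 0.026, STUB1 from -0.18 to 0.047 and VIM from -0.21 to 0.034. Leaving out the most changed entry of each gene gave 0.068 for HLA-B, -0.86 for HLA-E, -0.012 for B2M and 1.11 for TAP1 among the members. Among other genes it gave -0.24 for HFE, -0.023 for CALR, 0.38 for NPEPPS, 0.34 for IRF1, -0.37 for STAT3, -0.35 for CD74, 0.22 for PVR, -0.084 for CD47, -0.041 for CSNK2A1, 0.42 for MICA, -0.16 for CD8A and 0.65 for VIM. Where that entry holds most of a gene, as in HLA-E (96.3%) or TAP1 (86.8%), what is left is a small remainder. Adding alternate haplotype copies was not run, since each symbol matched 1 identifier. With depth unknown, what these libraries could detect is bounded only by the intervals given.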

Other observations

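Immune ligands outside antigen presentation showed values in both directions. Of 11 tested checkpoint ligands, 1 passed, higher in Sh-YAP1 (1.75% of all genes). NECTIN3, a nectin adhesion molecule, was at 10.7, 11.1 and 11.9 FPKM in Sh-NC against 16.0, 14.3 and 16.6 FPKM in Sh-YAP1 and rose by 0.44 (SE 0.09, limma adjusted p = 0.0495), and with any 1 of the 6 libraries left out the log2 difference was 0.40 to 0.50 but the call was lost (adjusted p 0.0876 to 0.149, limma). CD47, the signal that restrains phagocytes, was at 11.8 ± 1.05 and 17.9 ± 4.75 FPKM (SD, n = 3; log2 difference 0.54, limma adjusted p = 0.148; 0.34 without Sh-YAP1 replicate 2). PVR, a ligand of TIGIT, was at 22.9 ± 1.98 and 15.5 ± 3.70 FPKM (-0.55, adjusted p = 0.14; -0.36 without Sh-YAP1 replicate 3), and VSIR, the checkpoint molecule VISTA, was at 2.37 ± 0.0839 and 1.37 ± 0.250 FPKM (-0.51, adjusted p = 0.063; -0.80 with a pseudocount of 0.01). NT5E, the ectoenzyme CD73, was the most abundant of this list, at 153 ± 4.38 and 153 ± 7.31 FPKM. CD276 stood apart in replicate 2 of both groups, at 35.7 and 31.3 FPKM beside 11.8 to 15.4 FPKM in the other 4 libraries.

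All 6 tested ligands of the NK cell receptor NKG2D had the lower mean in Sh-YAP1, beside 7420 of 14770 genes in all with a log2 difference below 0. Their median log2 difference was -0.30, 4 had groups without overlap (14.7% of all genes, lower in Sh-YAP1) and 0 passed (limma; 2 with an unadjusted p under 0.05). MICB was at 29.7, 30.0 and 27.1 FPKM in Sh-NC against 22.9, 24.4 and 21.2 FPKM in Sh-YAP1 (-0.33, limma adjusted p = 0.0843). MICA was at 32.2 ± 0.317 and 26.9 ± 4.22 FPKM (SD, n = 3; -0.26, adjusted p = 0.251; -0.14 without Sh-YAP1 replicate 1), and RAET1E at 5.46 ± 1.23 and 3.30 ± 0.534 FPKM (-0.58, adjusted p = 0.116). RAET1L, under the filter on low values, was at 0.49, 0.49 and 0.52 FPKM in Sh-NC and at 0.30, 0.06 and 0.18 FPKM in Sh-YAP1.

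Of 6 regulators of PD-L1 protein, 0 passed (limma; 0 with an unadjusted p under 0.05). STUB1, an E3 ubiquitin ligase, was at 41.0 ± 0.777 and 39.1 ± 6.33 FPKM (SD, n = 3), and CSNK2A1, a casein kinase subunit, at 25.7 ± 9.68 and 35.3 ± 2.13 FPKM (log2 difference 0.52, limma adjusted p = 0.332; 0.17 without Sh-NC replicate 3). Of 3 tested class I pseudogenes, 0 passed (limma; 1 with an unadjusted p under 0.05), and HLA-H was at 6.43 ± 0.377 and 7.55 ± 0.322 FPKM (0.20, adjusted p = 0.211).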
